A study of Mus musculus with 6 samples.

Results

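Lipid droplets are the stores in which cells keep triglyceride, and 10 genes of their coat and of triglyceride turnover were examined in hearts with raised glucose uptake: the perilipins Plin2, Plin3, Plin4 and Plin5, the CIDE genes Cidea and Cidec, the lipolysis genes Pnpla2 and Abhd5, and the diacylglycerol acyltransferases Dgat1 and Dgat2. They are 10 of the 18193 genes that the annotation of the array names by a single symbol, and they were chosen by pathway membership with the difference between the groups already known, so that their values here are a description. The 10 genes have 16 probe sets among 45037, and 15 of these, covering 9 genes, passed the filter on low signal that left 13178 genes in all. Cidec is the member below it.

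The samples were left ventricles of male FVB mice aged 11 to 12 weeks on standard chow, 3 of them wild type (WT) and 3 transgenic (Glut1-TG), with 1 Affymetrix mouse expression array for each heart. Glut1-TG mice carry human Glut1, an insulin-independent glucose transporter, under the alpha-myosin heavy chain promoter, which is active in cardiomyocytes; WT mice carry no transgene. Each probe set has a signal intensity (linear, not log), with a trimmed mean of 500 on every array and medians between 171 and 213. Since the transgene is of human sequence, the mouse Slc2a1 probe sets are no check of the labels: 1 of the 3 was higher and the other 2 were lower in all Glut1-TG arrays. The cardiomyocyte markers gave a summed signal of 466008 to 561919 in WT hearts and of 438529 to 465742 in Glut1-TG hearts, with all 12 genes over the filter and a median log2 fold change of -0.18.

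A droplet has a core of triglyceride under a single layer of phospholipid, and perilipins coat it and govern the access of lipases. DGAT enzymes carry out the last step of triglyceride synthesis, adipose triglyceride lipase (the product of Pnpla2) with its coactivator (the product of Abhd5) carries out the first step of its breakdown, and CIDE proteins let droplets exchange lipid and grow. In the heart this pool turns over quickly, releases fatty acids for oxidation and supplies ligands of the nuclear receptor PPAR-alpha, of which several perilipin genes are known targets.

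The promoters of Plin2, Plin3, Plin5 and Pnpla2 are shown as examples. Among the Glut1-TG hearts, the signals of Plin3, Plin5 and Pnpla2 were highest in the same heart and that of Plin2 was lowest in it. Plin4 and Dgat2 were also highest in that heart. The Plin4 promoter, which held none of the motifs searched, is not shown, and none was available for Dgat2. Those shown are RefSeq sequences of build GRCm38.p6, from 250 bases before the start of the transcript to 10 bases after it. They are read 5′ to 3′ on the strand of the gene, and capitals mark every match to a motif searched. The Plin2 promoter lies at chr4:86670050-86670309 on the minus strand, that of Plin3 at chr17:56290502-56290761 on the minus strand, that of Plin5 at chr17:56117539-56117798 on the minus strand (the more upstream of its starts), and that of Pnpla2 at chr7:141454938-141455197 on the plus strand.
Plin2: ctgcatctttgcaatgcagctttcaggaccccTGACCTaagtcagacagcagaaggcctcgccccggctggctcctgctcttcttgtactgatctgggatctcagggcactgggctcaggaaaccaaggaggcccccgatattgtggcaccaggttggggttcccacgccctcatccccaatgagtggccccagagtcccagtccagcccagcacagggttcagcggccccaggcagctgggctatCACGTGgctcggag
Plin3: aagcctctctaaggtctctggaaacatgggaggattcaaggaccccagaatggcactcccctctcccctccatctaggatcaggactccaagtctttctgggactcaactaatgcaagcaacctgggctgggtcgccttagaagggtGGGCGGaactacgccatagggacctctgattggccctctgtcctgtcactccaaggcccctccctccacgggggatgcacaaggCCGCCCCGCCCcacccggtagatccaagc
Plin5: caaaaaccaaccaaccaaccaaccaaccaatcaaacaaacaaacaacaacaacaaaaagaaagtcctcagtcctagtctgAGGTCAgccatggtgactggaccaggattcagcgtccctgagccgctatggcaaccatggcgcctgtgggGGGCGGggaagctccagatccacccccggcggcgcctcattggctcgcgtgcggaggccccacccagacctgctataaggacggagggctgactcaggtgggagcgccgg
Pnpla2: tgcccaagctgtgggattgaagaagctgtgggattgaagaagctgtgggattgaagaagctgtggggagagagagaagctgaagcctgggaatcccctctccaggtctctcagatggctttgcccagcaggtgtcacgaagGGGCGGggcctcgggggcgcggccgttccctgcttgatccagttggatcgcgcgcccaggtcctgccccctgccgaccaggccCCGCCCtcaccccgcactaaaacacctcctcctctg
Capitals in the Plin2 sequence are a nuclear receptor core motif on the opposite strand (AGGTCA, first base at -218) and an E-box (CACGTG, first base at -4), in that of Plin3 they are 3 GC boxes (GGGCGG), of which the pair nearest the start overlap on the opposite strand, in that of Plin5 a core motif at -170 and a GC box at -100, and in that of Pnpla2 GC boxes at -109 and -26. Both strands were searched for these 3 motifs, for the TATA box TATAAA, for the cAMP response element TGACGTCA, and for the PPAR response element, taken as the core motif repeated in the same direction after any 1 base. The promoter table holds 9 entries for 7 of the members (Plin2, Plin3, Plin4, Plin5, Cidec, Pnpla2 and Abhd5). None of the 7 held the PPAR response element in this window, which 0.0335% of all 32851 promoters of the table held. The core motif was found for 3 of the 7 members (Plin2, Plin5 and Abhd5) and in 14.5% of all promoters, the GC box for 4 of the 7 (Plin3, Plin5, Pnpla2 and Abhd5) and in 33.4%, and the E-box for Plin2 alone and in 6.34%. No TATA box or cAMP response element was found for the 7 members, against 12.7% and 1.67% of all promoters. A member was counted if any of its entries held the motif, whereas the percentages are shares of single entries. These matches describe the letters of the window and no binding.

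**Figure D1:**
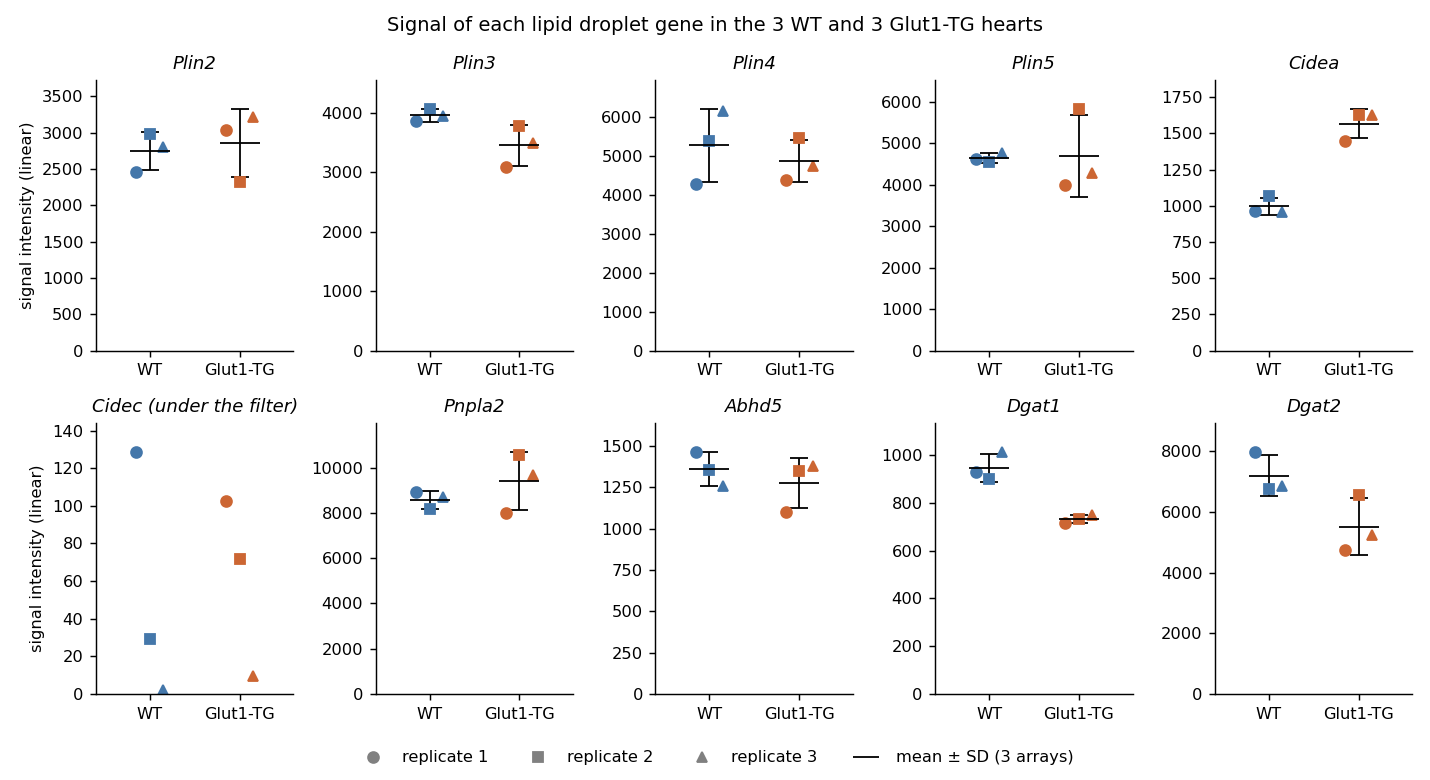
Signal intensity (linear scale, each axis starting at 0) of the 10 genes in the 3 WT arrays (blue) and 3 Glut1-TG arrays (orange), 1 point for each heart, with the mean and SD of 3 arrays as black lines, left out for Cidec, which is under the filter. The Glut1-TG points lie above the WT points for Cidea and below them for Plin3, Dgat1 and Dgat2, and the groups overlap for the other 6 genes.

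Cidea was the gene among the 10 that passed the limma test after adjustment over all genes. It encodes a droplet protein best known from brown fat, where it sits at droplet contacts and promotes lipid transfer. Its single probe set (1417956_at) read 966, 1064 and 957 in the WT hearts and 1448, 1625 and 1627 in the Glut1-TG hearts. Every Glut1-TG heart was higher than every WT heart, and the 3 hearts of each group lay close together. The means were 996 ± 59.5 (SD, n = 3) and 1567 ± 102, a log2 fold change of 0.65 with an SE of 0.11 (95% interval 0.41 to 0.90), or 1.57-fold. The adjusted p was 0.031 by limma over 13178 genes, and 0.044 in the fit over all probe sets. In bulk tissue a higher level in each cell and a larger share of the cells that express the gene cannot be told apart.

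Of the 9 members tested, 1 (Cidea) was higher and 0 were lower by limma at an adjusted p under 0.05, and over all genes tested 0.258% were higher and 0.599% lower, 0.857% in both directions. At an unadjusted limma p under 0.05 there were 3 members, Cidea, Dgat1 and Dgat2, and 11.3% of all genes. At the thresholds of the study (its minimum fold change and an unadjusted p under 0.05 by the methods' test) Cidea was higher and Dgat1 was lower, 2 of 9, beside 5.86% of all genes, and after Benjamini-Hochberg adjustment that test left none of the 9 (Cidea at an adjusted p of 0.20). Over probe sets 1 of 15 was called and 0.437% of all probe sets. The groups did not overlap for 4 of the 9, Cidea above and Plin3, Dgat1 and Dgat2 below, and for 17.4% of all genes. Since the genes were selected on this contrast, nothing is read from these shares. The median log2 fold change was -0.10 over the 9 genes and 0.02 over all genes tested.

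The call of Cidea rested on the full set of hearts. Without WT replicate 1, 2 or 3 its adjusted p by limma was 0.12, 0.091 and 0.15, without Glut1-TG replicate 2 or 3 it was 0.095 and 0.10, and without Glut1-TG replicate 1 it was 0.022, with log2 fold changes from 0.63 to 0.71. With the replicate number as a block the adjusted p was 0.061, and without an intensity trend in the variance it was 0.20.

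Markers of fat cells and of atrial muscle were read beside Cidea, which fat cells also express. Of the brown adipocyte markers, Ucp1, the uncoupling protein that defines brown fat, read 11.4 to 36.2 in WT and 19.6 to 84.3 in Glut1-TG hearts, below the filter of 115 in all 6. Adipoq, the hormone of fat cells, read 35.3 to 107 in WT and 8.3 to 139 in Glut1-TG hearts, and Lep read 28.6 to 153 and 29.8 to 101. These 3 genes were near the low end of the array, and none of them was higher in all Glut1-TG hearts. Other fat markers were brighter: 7 of the 9 white markers lay over the filter on average, among them Lipe (794 to 1256 over the 6 hearts), Mrap (260 to 441), Retn (167 to 383) and Car3 (197 to 427), and so did Elovl3, Dio2, Prdm16 and Ebf2 of the brown markers. None of the 7 white and 5 brown adipocyte genes tested beside Cidea passed limma, and the summed signal of the 9 white markers measured was 2370 to 3365 in WT and 2587 to 3162 in Glut1-TG hearts. That of the 8 brown markers without Cidea was 32247 to 39175 in WT and 27553 to 30279 in Glut1-TG hearts, nearly all of it Cox8b, a cytochrome oxidase subunit that heart muscle itself expresses. The part of fat cells in the Cidea difference was not tested.

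Among the atrial genes, Myl7 and Myl4 were higher along with Cidea, and the others varied in direction. Myl7, the atrial regulatory light chain of myosin, read 26.5, 90.5 and 14.2 in WT and 378, 713 and 315 in Glut1-TG hearts, and Myl4, the atrial essential light chain, read 400, 278 and 430 against 1036, 1697 and 1038. Both were higher in every Glut1-TG heart, and they were the 2 of 6 atrial genes tested that passed limma. Myl7 was under the filter in every WT heart and entered the test through its signal in the Glut1-TG hearts. Sln, another atrial gene, was under the filter on average and was not tested. It read lower in every Glut1-TG heart (39.4 to 65.3 against 114 to 117), and Nppa overlapped between the groups. Since the filter is on the mean over both groups, the count of 2 of 6 depended in part on the direction of the differences. Log2 fold changes were 0.72 for Dkk3, -0.03 for Nr2f2 and -0.61 for Bmp10, none past limma. Dkk3 too was higher in every Glut1-TG heart (159 to 194 in WT and 214 to 467 in Glut1-TG hearts). The summed signal of the 7 atrial genes was 6175 to 7222 in WT and 6613 to 9622 in Glut1-TG hearts. The part of these genes in the Cidea difference was not tested.

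**Figure D2:**
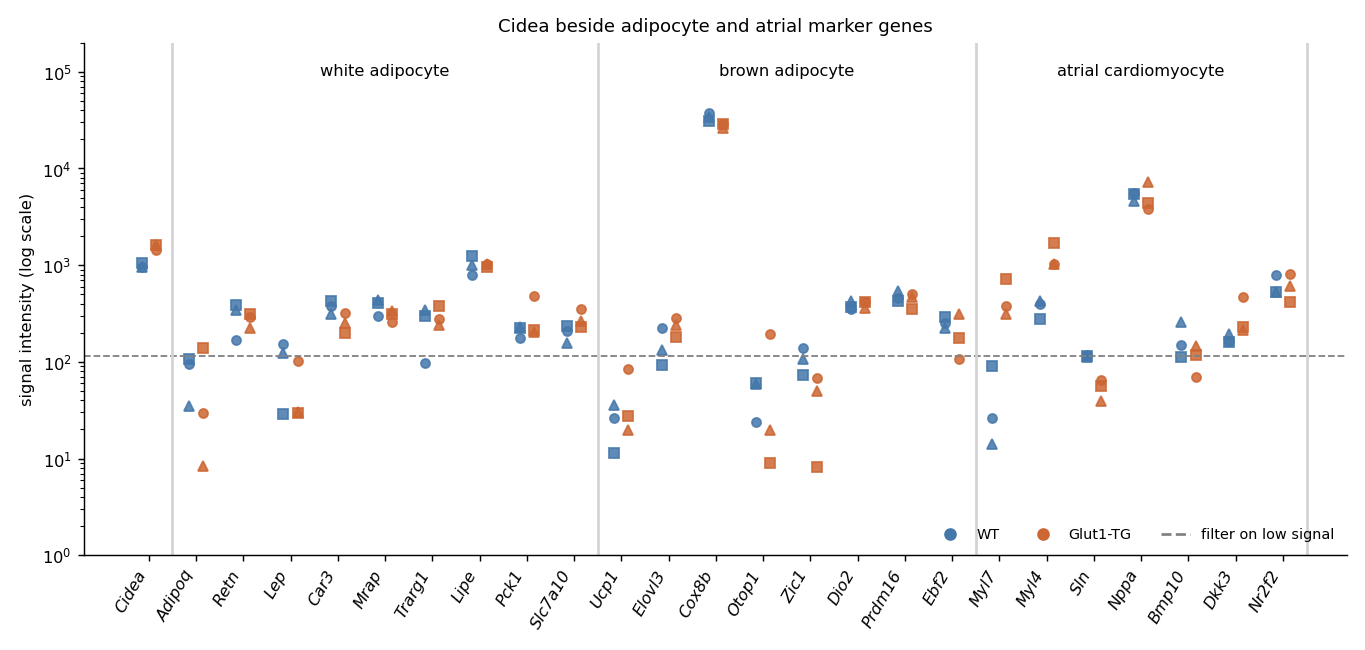
Signal intensity (log scale) of Cidea and of marker genes of white adipocytes, brown adipocytes and atrial cardiomyocytes in the 3 WT (blue) and 3 Glut1-TG arrays (orange; circle, square and triangle for replicates 1, 2 and 3), with the filter on low signal (115) as a dashed line. Cidea is higher in all Glut1-TG hearts, Ucp1 lies under the line in all 6, and Myl7, Myl4 and Dkk3 are higher in all Glut1-TG hearts.

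The 5 genes whose log2 signal followed that of Cidea most closely over the 6 arrays were Ube2h, a ubiquitin-conjugating enzyme (Pearson r = 0.998), Nin, the centrosomal protein ninein (0.997), Rbm33, an RNA-binding protein (0.993), Fbln2, the matrix protein fibulin 2 (0.992), and Pias3, a SUMO ligase (0.991). A gene that differs evenly between 2 groups scores high over 6 arrays, and 208 genes had an r over 0.9. None of the 5 passed limma, and the smallest adjusted p was that of Fbln2 (0.067), which read 1078 to 1155 in WT and 1490 to 1665 in Glut1-TG hearts.

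The other CIDE gene, Cidec, which in white fat drives the fusion of droplets, was at the low end of the array. Its probe set (1452260_at) read 129, 29.3 and 1.9 in the WT hearts and 103, 71.7 and 9.6 in the Glut1-TG hearts. The groups overlapped over their whole range, the mean was under the filter, and no difference could be tested at this signal.

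The 4 perilipins were read at signals well over the filter and none passed the test. Plin2, the perilipin that coats droplets in most cell types and follows their lipid content, read 2463, 2980 and 2809 in WT and 3031, 2324 and 3218 in Glut1-TG hearts. The groups overlapped, with the lowest value in Glut1-TG replicate 2, and the log2 fold change was 0.05 with an SE of 0.13 (95% interval -0.25 to 0.34). The interval leaves room for a difference of up to 1.27-fold.

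Plin5, the perilipin of oxidative tissues that ties droplets to mitochondria, read 4614, 4540 and 4780 in WT and 3999, 5836 and 4284 in Glut1-TG hearts on the probe set of higher signal (1441915_s_at). The 3 WT hearts lay inside the range of the Glut1-TG hearts, with Glut1-TG replicate 2 above all others. The log2 fold change was -0.00072 with an SE of 0.13 (95% interval -0.29 to 0.29), and it was 0.06 under quantile normalization; with arrays centred on cardiomyocyte markers, which adds 0.18 to every gene, it was 0.18. The other probe set (1424937_at) showed the same order of the Glut1-TG hearts, with 2781, 4244 and 3045, against 3290 to 3480 in WT. The coefficient of variation on these probe sets was 2.65% and 2.81% in WT and 21.0% and 23.2% in Glut1-TG hearts; whether the spread differs was not tested.

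Plin3, which moves from the cytosol to new droplets, read 3861, 4069 and 3945 in WT and 3097, 3779 and 3485 in Glut1-TG hearts. All Glut1-TG hearts were lower, by a small margin for replicate 2. The log2 fold change was -0.20 with an SE of 0.09 (95% interval -0.41 to 0.0072), and the adjusted p by limma was 0.46. Plin4, a perilipin of adipose tissue and muscle whose promoter lies close to that of Plin5 on chromosome 17, read 4286, 5375 and 6149 in WT and 4390, 5465 and 4746 in Glut1-TG hearts. The groups overlapped at a log2 fold change of -0.11 with an SE of 0.14 (95% interval -0.41 to 0.20), which became 0.08 with arrays centred on cardiomyocyte markers, a shift that all genes share.

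The lipolysis genes did not pass the test either. Pnpla2 read 8934, 8155 and 8689 in WT and 8005, 10552 and 9661 in Glut1-TG hearts on its main probe set (1428143_a_at). The groups overlapped, since Glut1-TG replicate 1 was the lowest of the 6 hearts and the other Glut1-TG hearts were the highest, and the log2 fold change was 0.12 with an SE of 0.11 (95% interval -0.11 to 0.36). A second probe set (1428591_at), just over the filter, read 101 to 145 in WT and 149 to 202 in Glut1-TG hearts, with no overlap and a log2 fold change of 0.47 with an SE of 0.35. Its adjusted p over probe sets was 0.70.

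Abhd5, whose product switches on the Pnpla2 lipase, has 3 probe sets. The one of highest signal (1417565_at) read 1465, 1358 and 1258 in WT and 1103, 1347 and 1381 in Glut1-TG hearts, which overlapped at a log2 fold change of -0.10 with an SE of 0.12 (95% interval -0.37 to 0.18). The second (1417566_at) gave -0.18 with an SE of 0.17, and the third and dimmest (1447548_at) gave 0.47 with an SE of 0.32. The probe sets of Abhd5 thus differed in direction, the groups overlapped on each, and the sign of the gene turned when its probe sets were averaged (0.06), and also under the shift of all genes by centring on cardiomyocyte markers (0.09).

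The acyltransferases were the members with the largest decreases in Glut1-TG hearts, short of the adjusted threshold. Dgat1, a DGAT enzyme that re-esterifies incoming fatty acids, read 928, 901 and 1014 in WT and 716, 731 and 749 in Glut1-TG hearts. All Glut1-TG hearts were below all WT hearts, at means of 948 ± 58.6 and 732 ± 16.7 (SD, n = 3). The log2 fold change was -0.37 with an SE of 0.12 (95% interval -0.64 to -0.10), or 1.29-fold lower, with an unadjusted p of 0.012 and an adjusted p of 0.29 by limma over all genes. Its second probe set (1445229_at), near the filter, gave -0.64 with an SE of 0.47 and overlapping groups (119 to 196 in WT and 73.3 to 164 in Glut1-TG hearts).

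Dgat2, the DGAT enzyme linked to newly made fatty acids, read 7977, 6746 and 6855 in WT and 4744, 6570 and 5223 in Glut1-TG hearts on its probe set of higher signal (1422678_at). The groups did not overlap, although Glut1-TG replicate 2 lay just under the lowest WT heart. The log2 fold change was -0.39 with an SE of 0.12 (95% interval -0.67 to -0.12), or 1.31-fold lower, with an unadjusted p of 0.010 and an adjusted p of 0.27 by limma. The second probe set (1422677_at) read 4904, 4498 and 4281 in WT and 3297, 4482 and 3278 in Glut1-TG hearts (-0.32 on the log2 scale with an SE of 0.13), with Glut1-TG replicate 2 inside the WT range. Without that heart the log2 fold change of Dgat2 was -0.53 with an adjusted p of 0.088, the lowest over 15 alternatives, and under every alternative the log2 fold changes of Dgat1 and Dgat2 stayed below 0 (-0.51 to -0.19 and -0.53 to -0.21).

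**Figure D3:**
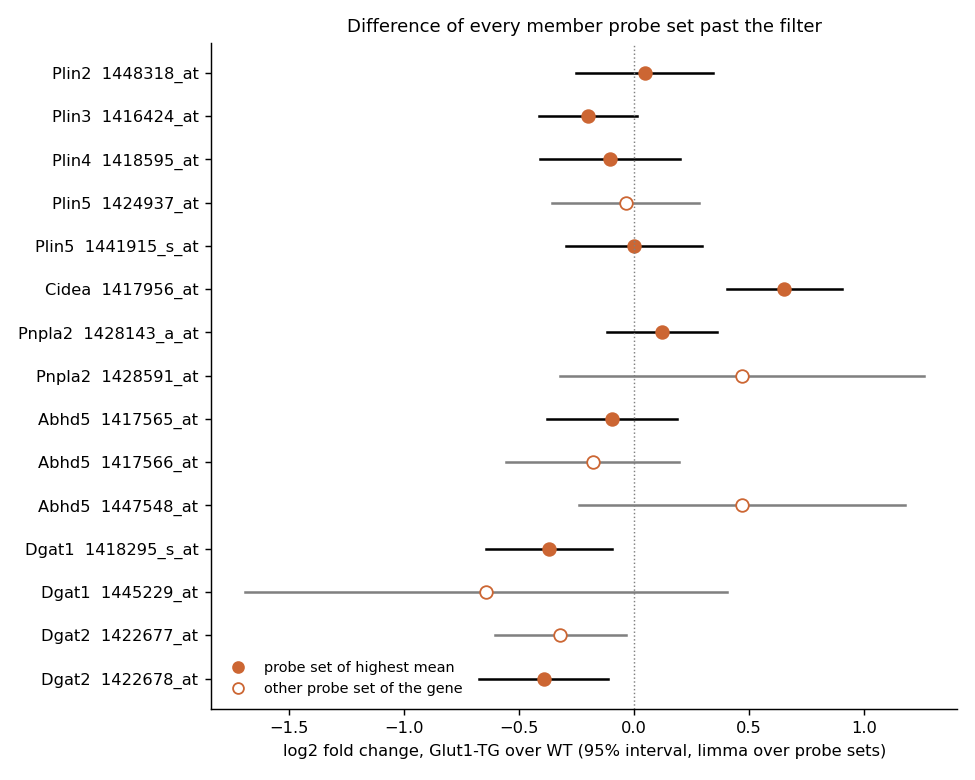
Log2 fold change of Glut1-TG over WT (x axis) for the 15 member probe sets past the filter (y axis), with 95% intervals from limma over all probe sets; filled points are the probe set of highest mean of a gene and open points are its other probe sets. The interval of Cidea lies above 0, those of the main Dgat1 probe set and of both Dgat2 probe sets lie below 0 without passing adjustment, and the other 11 include 0.

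The arrays of the Glut1-TG group differed from each other in a way that several members shared. Glut1-TG replicate 2 had the highest signal of its group for 5 of the 9 genes (Plin3, Plin4, Plin5, Pnpla2 and Dgat2) and the lowest for Plin2, while Glut1-TG replicate 1 had the lowest signal for 8 of the 9, all but Plin2. Over all genes tested replicate 2 was the highest of its group for 32.9%, and replicate 1 the lowest for 39.0%. Replicate 1 was also the highest of its group for 36.8% of all genes. Its array had a median signal of 213, against 185 and 181 for replicates 2 and 3, at the same trimmed mean. The part of this array difference in the order of the members was not tested. In WT hearts the highest signal fell on each of the 3 arrays for 3 members. The summed signal of the fibroblast markers ran 24499, 33743 and 31082 over Glut1-TG replicates 1 to 3. That of the macrophage markers ran 14110, 18257 and 18189, also lowest in replicate 1, as were the endothelial and atrial sums. The cardiomyocyte sum ran 465742, 460622 and 438529, highest in replicate 1, as were the white and brown adipocyte sums. The skeletal muscle sum was lowest in replicate 2. The part of these cell types in the order of the members was not tested.

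Centring each array on its cardiomyocyte markers added 0.18 to the log2 fold change of every gene alike, which took the median of all genes from 0.02 to 0.20, and on that scale Cidea stood at 0.84, Pnpla2 at 0.31, Plin2 at 0.23, Dgat1 at -0.19 and Dgat2 at -0.21. The distance of a gene from the median of all genes is fixed under this centring. The adjusted p of Cidea on that scale was 0.041.

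**Figure D4:**
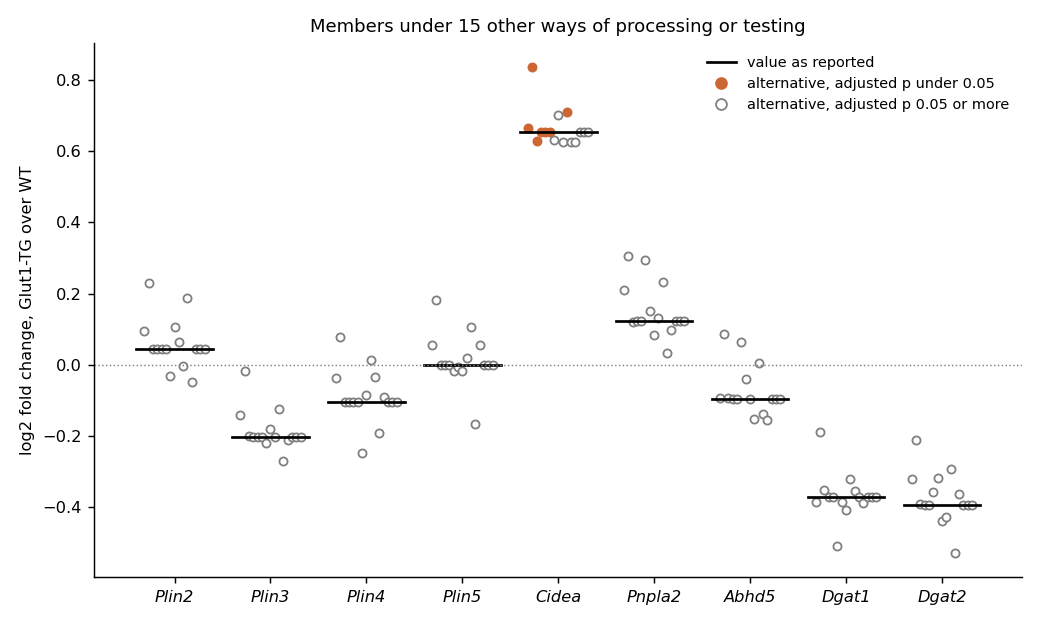
Log2 fold change of Glut1-TG over WT (y axis) for the 9 members tested (x axis), as reported (black line) and under 15 alternatives in scaling, filter, probe sets, arrays left out or test (points, filled where the adjusted p was under 0.05). Cidea lies above 0 under all 15 and is filled in 7, Dgat1 and Dgat2 lie below 0 under all 15 and are filled in none, and Plin2, Plin4, Plin5 and Abhd5 have points on both sides of 0.

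The other genes of triglyceride synthesis gave no call among 12 tested of 17 listed. Of these, 9 had a log2 fold change above 0 and 3 below, beside 6979 above and 6199 below among all genes tested, and 3 passed an unadjusted limma p of 0.05, which 11.3% of all genes did. Agpat3, an acyltransferase of phosphatidic acid synthesis, read 2809 to 3108 in WT and 3401 to 3998 in Glut1-TG hearts, which gave a log2 fold change of 0.31 with an SE of 0.09 and an adjusted p of 0.24. Gpd1, which makes glycerol 3-phosphate from a glycolytic intermediate, read 610 to 839 in WT and 911 to 1060 in Glut1-TG hearts (0.35 with an SE of 0.16), while Agpat5, a mitochondrial member of the same acyltransferase family, read 915 to 1097 and 579 to 848 (-0.42 with an SE of 0.17). On the probe sets used, the groups did not overlap in these 3 genes, and no adjusted p by limma was under 0.24. Over the list, all Glut1-TG hearts lay above WT for 3 of the 12 genes and below for 2. Among all genes tested, 17.4% had groups without overlap. Agpat2 and Gpd1l came next, at 0.16 and -0.16, also without overlap on the probe sets used. Further probe sets past the filter gave 0.36, 0.35 and 0.02 for Agpat3 and 0.32 and -0.03 for Gpd1. They gave -0.28 and -0.03 for Agpat5 and -0.18 for Gpd1l. The groups overlapped on each of these further probe sets except those at 0.35 and 0.32.

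The wider lipolysis list gave no call among 16 tested of 19 listed. At an unadjusted limma p under 0.05 there was 1 gene, beside 11.3% of all genes. Log2 fold changes were above 0 for 6 and below 0 for 10 (6979 and 6199 over all genes), from -0.42 for Ces1d, a carboxylesterase that hydrolyses triglyceride, to 0.39 for Pnpla3, a paralogue of Pnpla2. G0s2, which inhibits the Pnpla2 lipase, read 832, 1085 and 945 in WT and 1009, 1254 and 1040 in Glut1-TG hearts and overlapped between the groups (0.21 with an SE of 0.14). Prkar1a, a regulatory subunit of protein kinase A, stood at -0.14 and Lipa, the lysosomal lipase, at 0.24. These are values of the brightest probe set of a gene. The others past the filter gave -0.56 and -0.27 for Ces1d, -0.28 and -0.04 for Prkar1a, and 0.57 and 0.43 for Lipa. Their lowest adjusted p by limma over probe sets was 0.0998, for Ces1d at -0.56.

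Fitm1 was the gene called among 19 tested of 21 listed lipid droplet proteins, where 0.857% of all genes were called. Log2 fold changes were above 0 for 4 of the 19 and below 0 for 15, with a list median of -0.08, and over all genes they were above 0 for 6979 and below 0 for 6199, with a median of 0.02; nothing particular to the list is read from this. It encodes a membrane protein of the endoplasmic reticulum in muscle that packages triglyceride into nascent droplets. It read 6326, 5413 and 5273 in WT and 3955, 4209 and 3623 in Glut1-TG hearts, so that all Glut1-TG hearts were lower by a clear gap, and the log2 fold change was -0.53 with an SE of 0.10, or 1.44-fold lower. The adjusted p by limma was 0.045, and it was 0.063 over all probe sets and between 0.065 and 0.15 when any 1 of the 6 arrays was left out. Its relative Fitm2 read 3686 to 4159 in WT and 3100 to 3659 in Glut1-TG hearts (-0.20 with an SE of 0.09, adjusted p 0.46). Nsdhl, a sterol dehydrogenase found on droplets, was the highest of the list at 0.61 with an SE of 0.15, with 480 to 565 in WT and 740 to 920 in Glut1-TG hearts and an adjusted p of 0.14. Faf2, which recruits a segregase to droplets, stood at 0.41 and Acsl4, an acyl-CoA synthetase, at -0.58, both with overlapping groups.

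Among genes of fatty acid supply and PPAR targets, 29 tested of 38 listed, Ppara was lower and none was higher. Ppara, the nuclear receptor that drives genes of fatty acid oxidation, read 1452, 1803 and 1299 in WT and 696, 576 and 745 in Glut1-TG hearts, with a wide gap between the groups. The log2 fold change was -1.17 with an SE of 0.16, or 2.25-fold lower, with an adjusted p of 0.0085 by limma. The adjusted p was 0.054 with arrays centred on cardiomyocyte markers, 0.15 without an intensity trend and 0.23 by the methods' test. Its other probe sets gave -0.89 and -0.42, so the size of the decrease depended on the probe set. Without WT replicate 2 another probe set became the brightest of the gene and the log2 fold change was -0.51 (adjusted p 0.31), whereas on the probe set used with all arrays it was -1.04 without that heart (adjusted p 0.049).

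In the whole list 15 genes had a log2 fold change above 0 and 14 below, and at an unadjusted limma p under 0.05 there were 4 higher and 3 lower, beside 721 higher and 765 lower (11.3%) of all 13178 genes. Ucp3, a mitochondrial carrier induced by fatty acids, read 1168, 1847 and 1356 in WT and 1948, 2820 and 2786 in Glut1-TG hearts (0.80 with an SE of 0.19, adjusted p 0.12), Pdk4, the kinase that restrains pyruvate dehydrogenase, read 26247 to 29727 and 34389.5 to 36629 (0.33 with an SE of 0.08, adjusted p 0.15), and Acot2, a mitochondrial acyl-CoA thioesterase, stood at 0.37 with an SE of 0.11. For each of the 3 all Glut1-TG hearts were higher, short of the adjusted threshold. Lpl, the lipase that frees fatty acids from circulating lipoproteins, was lower in every Glut1-TG heart on both of its probe sets, at -0.31 with an SE of 0.10 on the brighter and -1.03 with an SE of 0.10 on the other, where the adjusted p over probe sets was 0.0022.

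**Figure D5:**
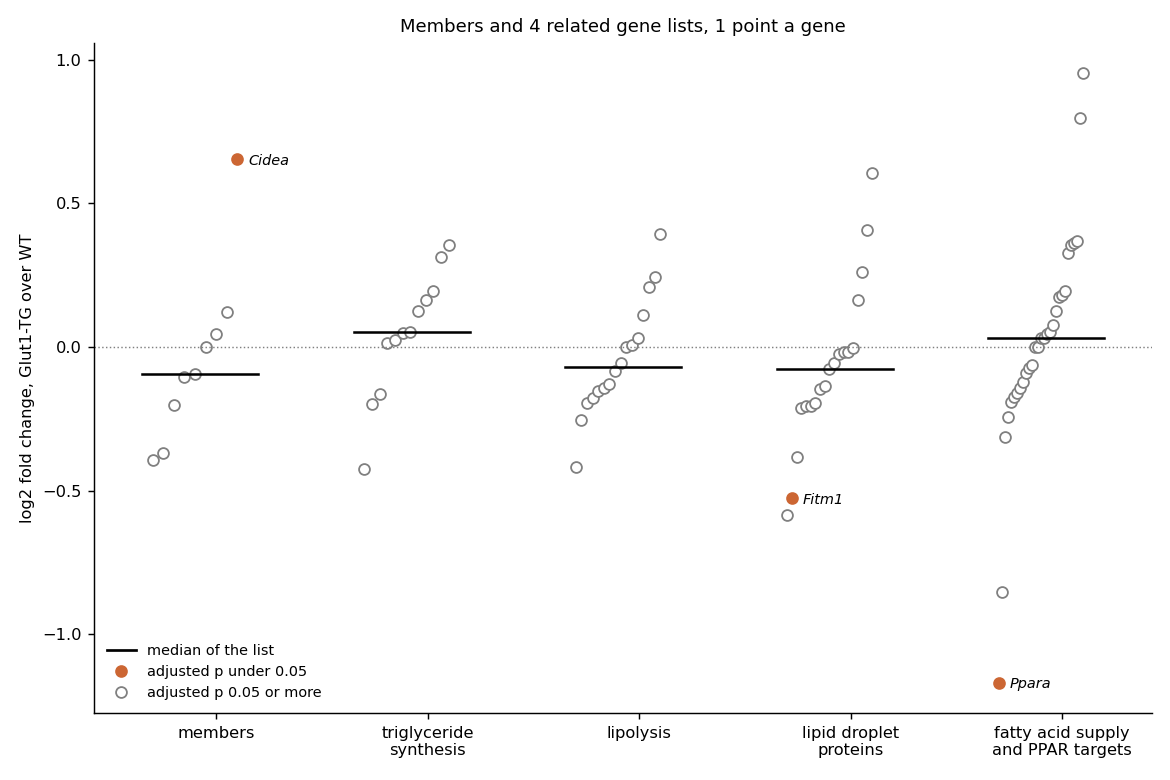
Log2 fold change of Glut1-TG over WT (y axis) for each tested gene of the members and of 4 related lists (x axis), sorted within a list, with the median of a list as a black line and genes at an adjusted limma p under 0.05 filled. Cidea, Fitm1 and Ppara are the filled points, and the 5 medians lie between -0.10 and 0.05.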

How the data were processed

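Total RNA extracted with Trizol from left ventricles was labelled as biotinylated cRNA and hybridised to 6 Affymetrix arrays. The deposited signal intensity of each probe set was made by the authors in GCOS (version not given in the sources used here) and is on a linear scale without detection calls. With 2% trimmed from either end the array means all came to 500, so the arrays were used as scaled by the authors. Of 45101 rows, 64 controls were removed, values under 1 (48 of them) were set to 1, and log2 was taken. Symbols came from the annotation of the platform, in which 34945 probe sets have 1 symbol, 932 several and 9160 none. The probe set of highest mean log2 signal stood for a gene, and only the upper 60% of probe sets, those with a mean signal over 115, entered the tests.

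The groups were compared with limma 3.58.1 under R 4.3.3 (lmFit, then eBayes with an intensity trend, no covariate), with Benjamini-Hochberg adjustment over all 13178 genes and 0.05 as threshold. The methods' test is an unpaired test on the same log2 values, used with the minimum fold change that the study names. Precision is limited by 3 arrays a group. In limma the spread of a gene between these hearts is moderated toward that of genes of like signal. Its p-values thus do not measure the gene's own spread alone. Members, lists, motifs and alternatives were chosen with earlier results of these data known. Named are all members with every probe set, up to 5 genes of each list (those past limma, then the smallest p), adipocyte and atrial markers by level, and the 5 genes closest to the member of smallest p. Genes with no single symbol, such as Plin1 and Acsl1, were not analysed here. The labels state no pairing of hearts by replicate number. Correlations of same-numbered deviations were 0.08, -0.03 and 0.05, and those of differently numbered ones ran from -0.11 to 0.06. With 3 arrays a group they cannot settle whether hearts were paired. Promoters came from a RefSeq table (GRCm38.p6), and sequences of Cidea, Dgat1 and Dgat2 are not shown.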

Additional observations from a re-analysis of the deposited data

How the results depend on the processing

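Alternatives were quantile normalization, centring on cardiomyocyte markers, an offset of 50, no filter, a filter keeping the upper 40%, the mean of probe sets, each array left out, a replicate block, eBayes without trend, and the methods' test with Benjamini-Hochberg. Members higher (1, Cidea) became 0 with the replicate block, without trend and with the methods' test, and 0 to 1 with an array left out; over probe sets the count became 0 with no filter and with the replicate block, and 0 to 1 with an array left out. Lipid droplet proteins lower (1, Fitm1) became 0 under quantile normalization, centring, no filter, the mean of probe sets, the replicate block, no trend and the methods' test, and was 0 without any array. Fatty acid supply and PPAR targets higher (0) became 1 under quantile normalization, centring and the replicate block; the count lower (1, Ppara) became 0 with centring, without trend and with the methods' test, 2 with the mean of probe sets, and 0 to 1 with an array left out. Members whose groups did not overlap fell from 4 to 2 under quantile normalization. Near 0, signs turned (where centring did so, by a shift of all genes alike) for Plin5 (0.057 quantile, 0.18 centred), Plin4 (0.078 centred) and Abhd5 (0.088 centred, 0.064 mean of probe sets), and with an array left out Plin2 ran from -0.047 to 0.19, Plin4 from -0.25 to 0.014, Plin5 from -0.17 to 0.11 and Abhd5 from -0.16 to 0.0066. Except where shown, the cause was not tested. Whether the replicate numbers pair hearts is not known, and the block changed no other call of a member. Ppara on its full-fit probe set without WT replicate 2 was added after seeing the data. Signals near the filter, as for Cidec, limit what can be tested.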
